A study of Xenopus laevis with 16 samples.

Results

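The comparison set foxD5-injected animal caps of Xenopus laevis that were cultured in Noggin against foxD5-injected caps cultured without it, and it used 8 of the 16 arrays of the series. Both groups held 4 arrays and carried the same injection, 100 pg of foxD5 mRNA into every cell at the 2-cell stage. Caps were cut at stage 8-9, and the only labelled treatment that separated the groups was 200 ng/ml Noggin in the medium. The members are all 15491 probe sets of the array other than the manufacturer's controls, and none was chosen on its values. No group given here carries a control mRNA. The remaining 8 arrays were uninjected siblings of the same embryos, with and without Noggin, and served as the second setting in which Noggin was compared.

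An animal cap is the roof of the blastula, a sheet of ectoderm that turns into epidermis in plain saline because its own BMP signals drive it there. Noggin is a secreted protein that binds BMP ligands and keeps them from their receptors. Caps that receive enough of it lose epidermal genes and take on early neural ones. FoxD5, whose gene is now called foxd4l1, is a forkhead factor of the newly induced neural plate that acts mainly as a repressor. Xenopus laevis is an allotetraploid, so most genes exist as a pair of homeologs with the suffixes .L and .S, which were measured and counted apart.

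Labelled harvest stages without Noggin were 11.5-13.0, 12.5-13.0, 12.5-13.0 and 11.5-12.5, and with Noggin 11.5-12.5, 11.5-12.5, 12.0-12.5 and 12.5. Injected samples pooled 118 to 171 caps without Noggin and 100 to 136 with it, and the 100 caps of Noggin replicate 4 are described as small. Uninjected samples without Noggin carry no labelled stage and pooled 45 to 169 caps, with the 45 in sample 1. Those in Noggin pooled 110 to 136, and the 110 caps of sample 4 are described as small. Their labelled stages were 11.5-12.5, 11.5-12.0, 11.5-12.0 and 12.0-12.5. The source tissue is labelled as cochlea, which goes against the sample descriptions. Of the inner ear markers 3 were measured. Only otx1.L, which anterior ectoderm also expresses, had a mean signal over 64, at 252 to 627 on the injected arrays, while pax2.L (0.408 to 48.6) and pax8.L (1.24 to 17.6) were dim. Epidermal and neural plate genes were well detected, with 23 of 37 and 15 of 29 measured genes over a mean signal of 64, against 5 of 55 mesoderm, 3 of 31 endoderm and 2 of 32 blood and muscle genes. The ratio of the 3' to the 5' probe set of beta-actin, a measure of how intact the RNA was, ran from 0.96 to 1.51 without Noggin and from 0.57 to 1.02 with it, and the last paragraph gives the fit that holds it as a term. The same ratio of the control gene GAPDH ran from 2.29 to 3.43 without Noggin and from 2.42 to 3.18 with it, ranges that overlap widely. The labels do not say whether the numbered samples of a group were separate clutches. The spread behind every p may therefore be partly technical. They tie injected to uninjected siblings but link no plain culture to a Noggin culture, so Noggin and clutch cannot be told apart.

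Few probe sets passed the test between injected caps with and without Noggin. In limma's moderated test, adjusted over all probe sets by Benjamini and Hochberg, 20 of 15491 probe sets (0.129%) passed a threshold of 0.05, of which 11 (0.0710%) were higher with Noggin and 9 (0.0581%) lower. The split was 3 higher and 4 lower on the values as deposited, and 11 higher and 4 lower after median centring. The rises measured 1.03 to 1.90 on the log2 scale and the falls -0.99 to -1.76, with adjusted p from 0.00974 to 0.0484, and in each of the 20 the 2 groups of arrays did not overlap. Without regard to the threshold, 533 probe sets (3.44%) lay higher on every Noggin array than on any plain one after normalisation and 574 (3.71%) lower, and all counts of groups that do not overlap are on normalised values. At an unadjusted p under 0.05 the numbers were 872 (5.63%) and 953 (6.15%). The median change of all probe sets was -0.01, and 85 were over 2-fold higher and 42 over 2-fold lower. Over all 7531 symbols, 1 probe set each, 47.0% had a positive change. That share stands beside every count of positive changes given below. Fold changes are on the scale of log2(signal + 16), which understates the change of dim genes. The 20 probe sets name 9 genes that rose and 6 that fell, 1 of them through a pair of probe sets, and 4 probe sets have no single gene symbol in the annotation used, with log2 changes of 1.75, 1.1, -1.18 and -1.76.

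The genes that rose encode kinases, RNA regulators, a Wnt receptor and proteins of the actin skeleton. The largest rise was that of pim1.L, a serine/threonine kinase gene that promotes survival and growth. Its deposited signal was 28.1, 64.3, 74.8 and 62.2 on the 4 arrays without Noggin and 267, 328, 178 and 237 on the 4 with it, a log2 change of 1.90 ± 0.30 (SE, limma adjusted p = 0.016). Every Noggin array was more than 2-fold above the brightest plain array. The kinase gene mknk2.S, whose product phosphorylates the cap-binding factor eIF4E, went from 7.83, 67.8, 27.7 and 39.1 to 263, 121, 98.7 and 118 (1.75 ± 0.34, adjusted p = 0.048). Noggin replicate 1 was the high array there and replicates 2 to 4 lay close together. For cdca7.L, a Myc-regulated nuclear protein gene linked to cell division, values of 70.8, 47.5, 83.4 and 93.1 stood against 218, 248, 276 and 172 (1.51 ± 0.28). For any lower signal in these pooled caps, fewer cells of a type and less RNA per cell cannot be told apart.

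The next rises were in RNA turnover and nucleotide synthesis. The gene rbm7.L encodes the RNA-binding subunit of a complex that feeds transcripts to the nuclear exosome, and it read 368, 200, 321 and 138 without Noggin and 678, 563, 795 and 571 with it (log2 change 1.34 ± 0.24, limma adjusted p = 0.0393). The plain arrays differed among themselves by over 2-fold but stayed under every Noggin array. CTP synthase, which makes the cytidine nucleotide of RNA, is the product of ctps2.L, at 23.3, 13.2, 24.4 and 32.4 against 65.1, 112, 75.9 and 61.4 (1.29 ± 0.23). The zinc finger gene zfand5.L, whose product activates the proteasome in mammals, had 182, 204, 112 and 149 against 386, 374, 384 and 329 (1.12 ± 0.21). Its Noggin arrays were the tightest of the 9 rises relative to their mean of 368 ± 26.7 (SD, n = 4).

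The remaining rises concern signalling at the membrane and the cell cortex. Frizzled-7, the main Wnt receptor of the early Xenopus embryo, is encoded by fzd7.L, at 360, 237, 417 and 274 without and 697, 898, 665 and 686 with Noggin (1.15 ± 0.20, limma adjusted p = 0.0336). The calponin gene cnn3.L, which codes for an actin-binding protein, was at 199, 235, 186 and 192 against 475, 621, 396 and 352 (1.08 ± 0.17). The small GTPase gene cdc42.L, a regulator of polarity and filopodia, was at 103, 109, 98.1 and 107 against 282, 208, 221 and 195 (1.03 ± 0.18). The plain arrays of these last genes sat in narrow bands, with SDs of 22.0 and 4.81. Just above the threshold were lmbr1l.L, a membrane protein gene (1.19 ± 0.23, adjusted p = 0.0502), rab1a.L, which serves transport from endoplasmic reticulum to Golgi (0.77 ± 0.15, adjusted p = 0.0542), and zfp36l2.S, whose product triggers decay of AU-rich mRNAs (1.19 ± 0.24, adjusted p = 0.0542). Their groups did not overlap either, at 325 to 479 against 723 to 1285 for lmbr1l.L and at 101 to 179 against 242 to 399 for zfp36l2.S.

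The falls were in single genes of different roles. The lowest adjusted p of the comparison, 0.00974 in limma's test, belonged to myl9.L, the regulatory light chain of nonmuscle and smooth muscle myosin II. Its signal was 153, 187, 262 and 217 without Noggin and 59.0, 51.7, 57.4 and 55.1 with it, a log2 change of -1.55 ± 0.21. The Noggin arrays spanned under 8 signal units and the lowest plain array was over 2-fold above them. Pyruvate dehydrogenase kinase, which holds pyruvate back from the citrate cycle, is the product of pdk1.S, at 317, 310, 316 and 364 against 172, 119, 113 and 109 (-1.26 ± 0.18, adjusted p = 0.0108). Cytosolic malate dehydrogenase, an enzyme of the shuttle that carries reducing power into mitochondria, is encoded by mdh1.S, at 714, 676, 708 and 751 against 421, 358, 321 and 316 (-1.02 ± 0.18, adjusted p = 0.0294). A second probe set of mdh1.S also passed, at -0.99 ± 0.18 (adjusted p = 0.0425).

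The other 3 falls are nuclear or ubiquitin-ligase genes. The corepressor gene cir1.L, whose product binds the Notch effector RBPJ, read 686, 769, 838 and 995 without Noggin and 357, 376, 368 and 369 with it (-1.14 ± 0.18, limma adjusted p = 0.016). The histone chaperone gene anp32b.L had 425, 785, 903 and 1140 against 284, 211, 248 and 387 (-1.41 ± 0.27). Cullin-3, the scaffold of a family of ubiquitin ligases, came from cul3.S at 503, 567, 1150 and 1404 against 323, 264, 299 and 346 (-1.38 ± 0.26). For both of these the spread lay in the plain arrays, whose replicate 1 was the lowest each time. Below the called falls came myh15.L, a myosin heavy chain gene that is near background with Noggin (11.4, 45.9, 18.9 and 14.8 against 1.74, 1.87, 0.571 and 1.13, -1.0 ± 0.20, adjusted p = 0.0542). At an adjusted p of 0.0676 stood mysm1.L, a histone H2A deubiquitinase gene (-1.12 ± 0.23), paics.1.L, an enzyme gene of purine synthesis (-0.99 ± 0.21), mphosph10.L, a component of the U3 ribonucleoprotein of ribosome assembly (-0.89 ± 0.19), faap24.L of the Fanconi anaemia pathway (-0.76 ± 0.17) and zbtb33.S, the methyl-DNA-binding repressor Kaiso (-1.59 ± 0.35).

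**Figure D1:**
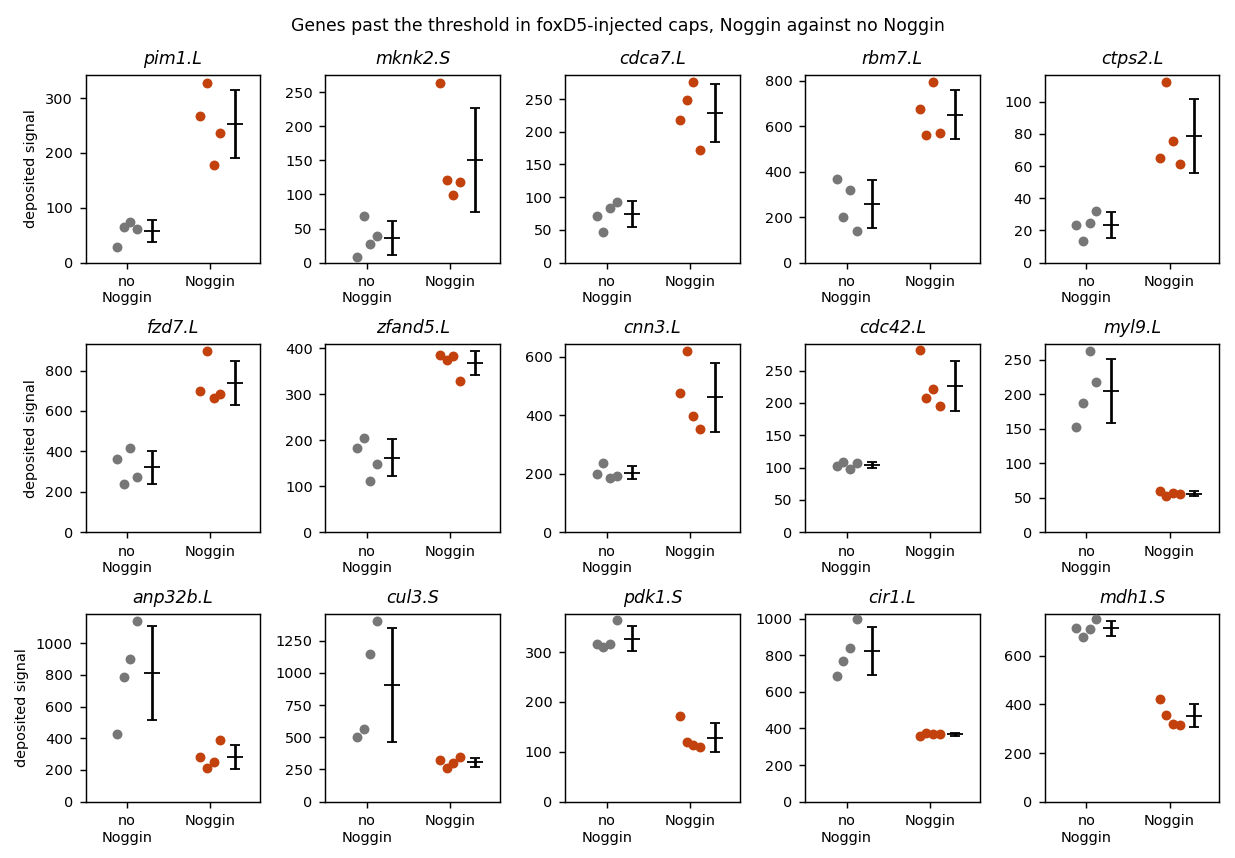
Deposited signal (linear axis from 0, arbitrary units) of the 15 named genes past the threshold, 1 point per array, without Noggin in grey and with Noggin in orange, 4 arrays each, and bars give mean ± SD. In every panel the 2 groups are separate, as for myl9.L with 153 to 262 against 51.7 to 59.0.

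The array carries several probe sets for many genes, and for most called genes the others did not move alike. Of the 15 genes, 11 have other probe sets, 29 in all. The companions of mdh1.S were all lower on every Noggin array, at -0.82 ± 0.16 (limma adjusted p = 0.0542), -0.76 ± 0.18 and the called -0.99. A companion of pdk1.S was at -0.99 ± 0.21 (adjusted p = 0.0676), while another, dim probe set of pdk1.S was at 0.30 ± 0.28. For pim1.L the companion, with mean signals of 194 and 181, was at -0.03 ± 0.21, for cnn3.L at 0.03 ± 0.19, and for mknk2.S and cdca7.L at 0.24 ± 0.21 each. The 9 companions of ctps2.L ran from -0.42 to 0.16 and the 5 of cdc42.L from -0.16 to 0.30. The 4 of fzd7.L were at 0.03, 0.08, 0.33 and 0.61, and in the deposited signals the groups of the one at 0.33 ± 0.17 overlapped. For anp32b.L and cir1.L the companions were at -0.27 ± 0.22 and -0.31 ± 0.17. Homeologs of 3 called genes were measured, mknk2.L at -0.17 ± 0.19, myl9.S at 0.21 ± 0.26 and pdk1.L at 0.19 ± 0.24, and none passed. Which probe set represents the full transcript is not given in the sources used here, so the calls hold for probe sets.

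No gene of the BMP pathway itself passed the test. Of 20 measured ligand, receptor and Smad genes none was called, with a median log2 change of -0.06 against -0.02 over all 7531 symbols (1 probe set each). The ligand gene bmp4.S was at 44.2, 142, 71.4 and 79.8 without Noggin and 97.0, 136, 23.2 and 44.1 with it (-0.25, 95% interval -1.33 to 0.84), and bmp7.2.L was at 231, 225, 321 and 228 against 240, 385, 160 and 145 (-0.20, interval -0.89 to 0.49). In both, the groups overlapped and Noggin replicates 3 and 4 were the lower pair of the Noggin arrays. The receptor gene bmpr1a.L was higher on every Noggin array, at 92.6, 136, 132 and 135 against 195, 233, 287 and 206 (0.82 ± 0.21, limma adjusted p = 0.105), and its homeolog bmpr1a.S had -0.32 ± 0.18. Among 20 antagonists and feedback inhibitors none passed and the median was -0.01. Transcripts of Noggin itself, from nog.L, were near background in both groups, 5.87 to 22.4 against 3.55 to 17.5. The labels give Noggin as an addition to the medium. The BMP-induced inhibitor Sizzled had values of -0.57 ± 0.52 (szl.L) and -0.51 ± 0.39 (szl.S).

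Direct BMP targets scattered widely. Of 29 measured targets none passed, the median was 0.03, 1 had an unadjusted p under 0.05 in the higher direction and none in the lower. The Vent repressors carry the ventral and epidermal programme downstream of BMP, and their paralogs had changes of opposite sign, a difference that was not tested. Higher on all Noggin arrays was ventx1.1.L (40.9, 32.0, 48.8 and 40.4 against 62.2, 90.5, 112 and 80.8, 0.94 ± 0.28, limma adjusted p = 0.165). By contrast ventx2.1.L was at 295, 367, 491 and 453 against 459, 592, 115 and 148 (-0.57 ± 0.44). Noggin replicates 1 and 2 were within or above the range of the plain arrays and replicates 3 and 4 below all of them. The inhibitory helix-loop-helix genes id2.S and id3.S were at -0.35 ± 0.21 and -0.27 ± 0.22, the homeobox gene msx1.L at 0.28 ± 0.35, and gata2.L at 0.24 ± 0.42. The 95% interval of ventx2.1.L, -1.50 to 0.36, includes a fall of over 2-fold, so these arrays could not show whether a fall of that size was there.

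**Figure D2:**
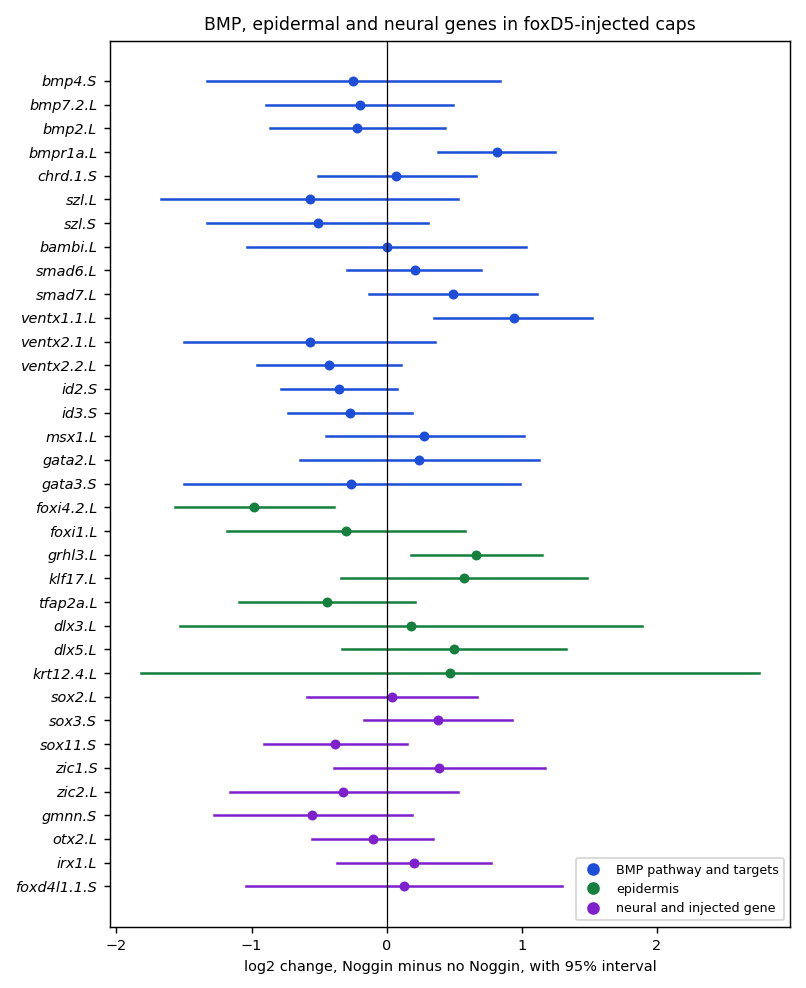
Log2 change with Noggin in foxD5-injected caps (points) and its 95% interval from the limma fit (lines) for 35 genes of the BMP pathway and its targets, the epidermis and the neural plate. Most intervals span 0, the widest being that of krt12.4.L from -1.82 to 2.76, and none of these genes passed the threshold after adjustment.

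Epidermal genes gave no call. Of 37 measured epidermal genes other than keratins none passed, 20 had a positive change and the median was 0.11. Of the 37, 1 was lower on every Noggin array, where 3.71% of all probe sets were. It was foxi4.2.L, a forkhead gene of the outer ectoderm, at 301, 331, 334 and 331 against 215, 187, 129 and 118 (-0.98 ± 0.28, limma adjusted p = 0.150). Another 3 were higher on every Noggin array, where 3.44% of all probe sets were. They include grhl3.L, a Grainyhead factor of surface ectoderm, at 293, 278, 264 and 298 against 659, 472, 373 and 396 (0.66 ± 0.23, adjusted p = 0.234), and the tight junction gene cldn4.L (0.57 ± 0.20). The ionocyte factor foxi1.L was dim in both groups, 7.1 to 28.8 against 0.920 to 22.2. Of 18 keratins none passed. On every Noggin array 3 were higher and none lower, against 262 and 346 of all 7531 symbols. At an unadjusted limma p under 0.05, 1 keratin was higher and 2 lower, against 413 and 590 of the symbols. The larval epidermal keratin krt12.4.L was at 30.9, 89.0, 51.5 and 66.6 against 132, 500, 23.7 and 20.5, and the homeobox gene dlx3.L at 44.0, 77.4, 52.8 and 53.3 against 56.7, 362, 21.4 and 25.3. Noggin replicate 2 was the highest of both, and the uninjected sibling sample of the same number in Noggin was higher still, at 1721 and 895. Uninjected sample 1 without Noggin was also high, at 1832 and 783. Of 20 genes of ionocytes and ciliated cells none passed and the median was -0.06.

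Neural plate genes showed no called rise. Of 29 measured neural fate transcription factors none passed, 17 were positive and the median was 0.05. The SoxB1 gene sox3.S, which holds neural progenitors, was higher on every Noggin array, 1016, 887, 953 and 1052 against 1376, 1127, 1485 and 1234 (0.38 ± 0.26, limma adjusted p = 0.617). Its relative sox2.L was at 86.6 to 150 against 89.5 to 137 (0.04 ± 0.30), and sox11.S, a SoxC factor of new neurons and the neural plate, was at 2343 to 2991 against 1736 to 2481 (-0.38 ± 0.25). The zinc finger genes that give competence to form neural tissue lay at 0.39 ± 0.37 (zic1.S), -0.32 ± 0.40 (zic2.L) and 0.15 ± 0.32 (zic2.S). Geminin, which couples the neural state to replication control, was at -0.55 ± 0.35 for gmnn.S and 0.10 ± 0.35 for gmnn.L. Anterior otx2.L, at 125 to 199 against 114 to 181, and the Iroquois genes irx1.L (0.20 ± 0.27), irx2.L (0.05 ± 0.23) and irx3.L (0.37 ± 0.24) overlapped between the groups. Of the foxd4l1 genes, foxd4l1.1.S was at 38.1, 95.7, 44.8 and 134 against 101, 79.9, 16.1 and 169 (0.13 ± 0.56). It did not separate injected from uninjected caps either, which read 20.9 to 70.6 without Noggin. The gene foxd4l1.2.L was near background, at 0.439 to 9.58 against 0.776 to 15.4 (-0.06 ± 0.22). Which foxd4l1 gene was injected, and whether these probe sets lie in the injected mRNA, is not given in the sources used here.

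Many genes of later neural programmes were dim. Of 32 anterior neural and eye genes 20 had a mean signal under 16 and none passed, and of 36 genes of neuronal differentiation 23 were under 16 and none passed. The proneural factor gene neurod1.L was near background on every injected array, at 4.30 to 12.3 without Noggin and 1.07 to 1.19 with it (-0.40 ± 0.24, limma adjusted p = 0.556). Cement gland and hatching gland genes, which mark anterior ectoderm exposed to intermediate BMP levels, had the highest median of the neural and ectodermal lists, 0.14 over 11 genes. In this list pax3.L, a factor also of the neural border, was at 456, 611, 734 and 796 against 904, 1239, 776 and 1690 (0.73 ± 0.33, adjusted p = 0.398). Neural border, crest and placode genes had a median of 0.09 over 27, and hindbrain and spinal cord genes 0.07 over 29. None of them passed.

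Within the Noggin group the arrays differed among themselves in BMP targets, epidermal genes and neural genes. Replicates 1 and 2 are labelled from stage 11.5, replicate 3 from 12.0 and replicate 4 from 12.5. Over all 7531 symbols, 19.2% had both later arrays below both earlier ones and 24.2% had both above. Of the 29 direct BMP targets 13 (44.8%) were below and 4 (13.8%) above, and of the 37 epidermal genes 16 (43.2%) and 4 (10.8%), and some genes are in both lists. Of the 29 neural fate genes 4 (13.8%) were below and 15 (51.7%) above, and of 29 maternal and germ plasm genes 0 were below and 18 (62.1%) above. Of 74 ribosomal protein genes 33 (44.6%) were below, so the order was not limited to patterning genes. The grouping was noticed after values were seen. These counts describe 4 arrays and carry no test, and clutch and labelled stage cannot be told apart in them. Arrays without Noggin also spread in uninjected caps. Against the mean of the injected plain arrays, the median log2 difference of BMP targets there was 0.99, 0.06, 0.23 and 0.58. That of epidermal genes was 1.07, 0.17, 0.29 and 0.66. On injected arrays the BMP target medians were -0.13 to 0.10 without Noggin and 0.04, 0.44, -0.11 and 0.02 with it.

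The split is visible in single genes. The epidermal Krüppel-like gene klf17.L was at 671 and 601 on Noggin replicates 1 and 2 and at 108 and 211 on replicates 3 and 4, with 184 to 225 without Noggin. For ventx2.1.S the same order gave 534, 719, 268 and 320, with 434 to 744 without Noggin. The Notch-type repressor hes7.1.L had 241, 428, 87.7 and 66.5, with 170 to 304 without. Neural genes ran the other way, zic1.S at 231, 158, 346 and 365 with 170 to 208 without, and gmnn.S at 716, 476, 1610 and 1228 with 1085 to 1559 without. The T-box gene vegt.L, a maternal and endomesodermal factor, had 776, 569, 1182 and 1324, with 432 to 695 without. Uninjected siblings in Noggin showed a like order for ventx2.1.L, at 592 and 935 for samples 1 and 2 against 227 and 158 for samples 3 and 4. For zic1.S they read 466 and 155 against 620 and 1043. Uninjected samples 2 and 3 in Noggin carry the same labelled stage, 11.5-12.0, and yet lay on opposite sides of this order. The called genes were on one side of the plain arrays in all 4 Noggin samples, and in the deposited signals pim1.L, mknk2.S, fzd7.L, cnn3.L, pdk1.S and mdh1.S also had both later arrays below both earlier ones. The second called probe set of mdh1.S had them above.

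**Figure D3:**
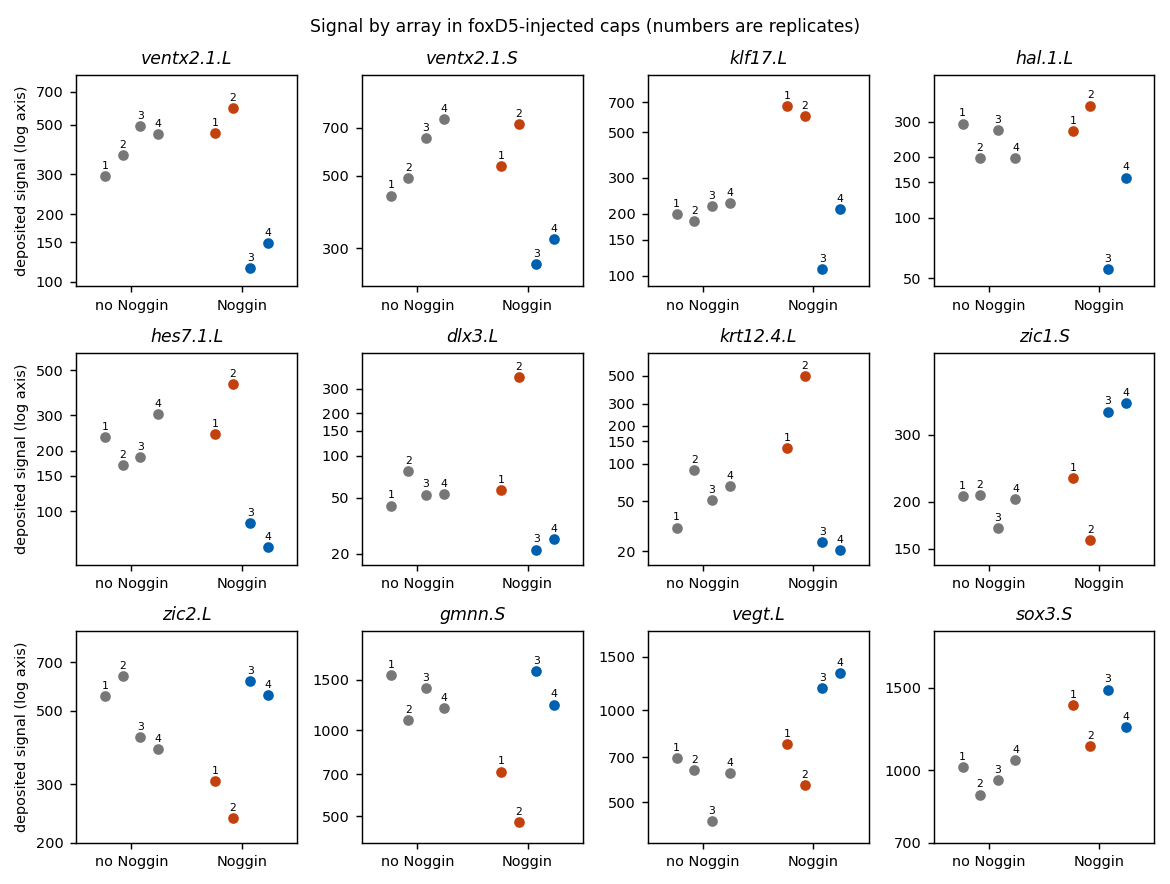
Deposited signal (log axis, arbitrary units) of 12 genes on each array, with the replicate number beside each point, no Noggin in grey, Noggin replicates 1 and 2 in orange and Noggin replicates 3 and 4 in blue. For ventx2.1.L the blue points lie at 115 and 148, under the orange ones at 459 and 592, while for zic1.S they lie above.

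Of the other signalling pathways only the Wnt list held a call. Of 48 canonical Wnt genes 1 rose, fzd7.L, none fell and 47 did not pass, with a median of 0.06. Over all probe sets 0.0710% rose. Of the 48, 5 were higher on every Noggin array, where 3.44% of all probe sets were. Of 10 Frizzled genes measured, a family looked at after values were seen, 8 had a positive change. The summed signal of the 10 was 887 to 1104 without Noggin and 1448 to 2093 with it, and it includes the called fzd7.L, with means of 322 ± 81.6 and 736 ± 109 (SD, n = 4), while 5 of the 10 had a mean signal under 16. Beside fzd7.L the higher receptors were fzd2.S, at 264, 240, 278 and 280 against 378, 525, 404 and 421 (0.65 ± 0.19, limma adjusted p = 0.159), and fzd8.S, at 160, 131, 133 and 102 against 216, 175, 213 and 178 (0.54 ± 0.23, adjusted p = 0.381). Of the 10, 4 had a mean signal over 64, and dim fzd10.S was at -0.34 ± 0.29. Beta-catenin, the transducer of the pathway, was at 1735 to 2849 against 2780 to 3129 for ctnnb1.L (0.34 ± 0.17), groups that overlap in the deposited signal but not after normalisation.

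FGF and Notch genes did not pass. Of 25 FGF genes the median was 0.05, with the feedback phosphatase dusp6.L at 0.77 ± 0.25 (limma adjusted p = 0.199), the ETS factor etv4.L at 0.53 ± 0.19 and the ligand fgf2 at -0.54 ± 0.21. Of 22 Notch genes the median was 0.14, and mib1.L, the ubiquitin ligase that activates Notch ligands, was lower on every Noggin array at 772, 724, 884 and 752 against 601, 506, 528 and 527 (-0.55 ± 0.15, adjusted p = 0.128). Genes of other germ layers were mostly near background. The medians were 0.08 over 55 mesoderm genes, 0.08 over 31 endoderm genes, 0.03 over 32 organizer genes and -0.04 over 32 blood and muscle genes. In the last list cebpa.S, a myeloid transcription factor gene, was at 22.3, 126, 121 and 44.0 against 2.09, 24.6, 15.8 and 21.3 (-1.44 ± 0.45, adjusted p = 0.181).

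Metabolic genes had mostly negative changes, with few calls. Of 43 genes of hypoxia and glycolysis 1 fell, pdk1.S, where 0.0581% of all probe sets fell, none rose and 42 did not pass, with a median of -0.13. The gene of the oxygen-regulated factor HIF-1 alpha, hif1a.L, was higher on every Noggin array, 581, 514, 706 and 542 against 1096, 846, 997 and 953 (0.69 ± 0.16, limma adjusted p = 0.078), and lactate dehydrogenase ldhb.S lower, 1121, 1163, 1133 and 1358 against 801, 718, 904 and 778 (-0.59 ± 0.18, adjusted p = 0.180). Of 71 genes of the respiratory chain and ATP synthase, a family defined by symbol after values were seen, none passed. A positive change was found in 9 of them, against 3537 of all 7531 symbols. In this family 16 had an unadjusted p under 0.05 in the lower direction and none in the higher. Counted alike, 590 of all 7531 symbols had such a p in the lower direction. Counted over all probe sets instead of symbols, the share was 6.15%. On every Noggin array 12 of the family were lower, against 346 of the 7531 symbols. Counted over all probe sets, that share was 3.71%. The family median was -0.27, against -0.02 over all symbols. The summed signal of the family was 20330 to 22536 without Noggin and 16289 to 19656 with it. Examples are atp5pb.L of ATP synthase (319, 259, 356 and 273 against 176, 202, 202 and 139, -0.71 ± 0.20) and uqcrc2.L of complex III (-0.64 ± 0.19), neither of which passed, at adjusted p of 0.150 and 0.166.

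Enzymes of the citrate cycle and malate shuttle, chosen in the same way, had 1 fall, mdh1.S, among 23 genes (0.0581% of all probe sets fell), 5 positive changes, a median of -0.20, and summed signals of 10058 to 11099 against 8584 to 8973. The mitochondrial aspartate aminotransferase gene got2.L was lower on every Noggin array (-0.80 ± 0.27, limma adjusted p = 0.210). Chaperonin and heat shock genes had a median of -0.20 over 56, with none past the threshold. At an unadjusted p under 0.05, 13 were lower and none higher. Among all 7531 symbols 590 were lower and 413 higher. Counted over all probe sets instead of symbols, the shares were 6.15% and 5.63%. The gene cct7.L, for a subunit of the cytosolic chaperonin, was at 179, 177, 162 and 170 against 102, 112, 60.1 and 97.2 (-0.79 ± 0.19, limma adjusted p = 0.0857). Cytosolic ribosomal protein genes had a median of -0.23 over 74, none past the threshold, and 9 positive changes. Here the plain arrays spread as widely, with list medians of -0.28, -0.11, 0.13 and 0.24 around their own mean, against -0.24, 0.07, -0.48 and -0.30 on the Noggin arrays. The medians of these 4 families were also negative in the uninjected comparison, at -0.22 for the respiratory chain, -0.12 for the citrate cycle, -0.09 for chaperones and -0.31 for ribosomal proteins.

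**Figure D4:**
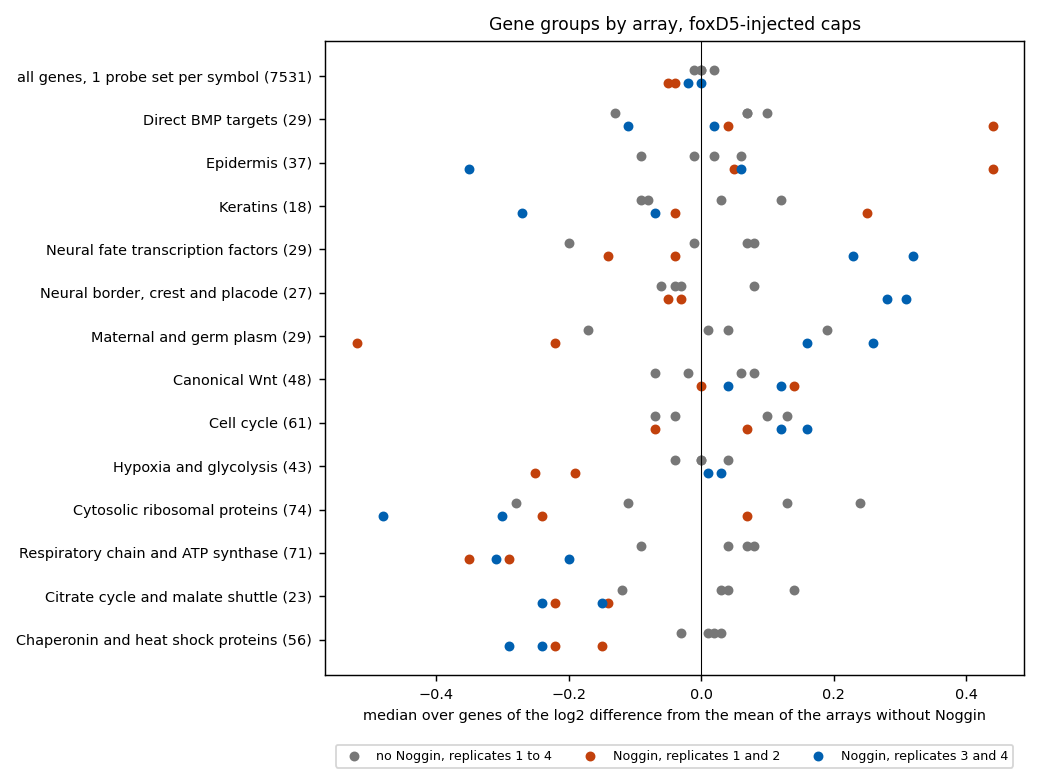
Median over the genes of each group (number measured in brackets) of the log2 difference from the mean of the 4 arrays without Noggin, 1 point per array. Respiratory chain genes lie at -0.20 to -0.35 on the Noggin arrays and at -0.09 to 0.08 on the plain ones, while neural genes lie at -0.14 to -0.04 on Noggin replicates 1 and 2 and at 0.23 to 0.32 on replicates 3 and 4.

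Cell cycle and stress genes gave no call. None of 61 cell cycle genes passed and their median was -0.01, with cyclin A2 (ccna2.S) at 0.70 ± 0.20 (limma adjusted p = 0.154) and cdk4.S at 0.41 ± 0.18. The groups of both overlapped in the deposited signals but not after normalisation. At an unadjusted limma p under 0.05, 8 of the 61 were higher and 2 lower, against 413 and 590 of all 7531 symbols. Of 20 p53 target and stress genes none passed, and sesn1.L, a sestrin that restrains growth signalling, was at 411, 400, 263 and 367 against 627, 571, 621 and 793 (0.80 ± 0.22, adjusted p = 0.128). The cadherin gene cdh3.S, which encodes a cell adhesion molecule, was at 297, 437, 295 and 306 against 592, 669, 706 and 618 (0.90 ± 0.20, limma adjusted p = 0.0743), a gene noticed after values were seen. Other such genes were eif4h.S, a helicase cofactor of translation initiation, at 207, 197, 240 and 222 against 641, 573, 430 and 306 (1.06 ± 0.22, adjusted p = 0.0676), and arf1.L, a small GTPase of Golgi vesicles, at 283, 148, 181 and 180 against 723, 610, 291 and 358 (adjusted p = 0.106). Over the 24 lists, which hold 580 distinct measured genes, 1 rose and 1 fell, where 0.0710% of all probe sets rose and 0.0581% fell, and 22 lists held no call.

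Uninjected caps had a change of the same sign at every called probe set. In uninjected caps, 1 probe set of 15491 (0.00646%) passed for Noggin by limma, cnn3.L at 1.24 ± 0.17 (adjusted p = 0.0142), and 1275 had an unadjusted p under 0.05. All 20 probe sets called in injected caps had the same sign there, and 19 were smaller in size. The 20 were chosen on their injected values. Uninjected caps were siblings of the injected ones, so the shared sign is not an independent repeat. Noggin and clutch cannot be told apart in them either. Their beta-actin ratio was also lower with Noggin, with a median of 0.995 against 1.495 without it, although the ranges overlapped. Whether this ratio bears on the shared signs was not tested. The changes of pim1.L were 1.90 ± 0.30 in injected and 1.73 ± 0.30 in uninjected caps, and those of fzd7.L 1.15 ± 0.20 and 1.09 ± 0.20. In uninjected caps pim1.L went from 126, 113, 79.9 and 135 to 425, 753, 226 and 361, again with no overlap. Across all probe sets the 2 sets of changes correlated with a Pearson r of 0.55, a description over 15491 points that share array, normalisation and sibling embryos.

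A test of the difference asked whether foxD5 alters the response to Noggin, and no probe set passed it. With sibling pair as a block, limma called 0 of 15491 (0%), the smallest adjusted p was 0.926, and 765 (4.94%) had an unadjusted p under 0.05. For pim1.L the difference, injected minus uninjected, was 0.16 with a 95% interval of -0.53 to 0.86, and for cnn3.L -0.17 with -0.63 to 0.30. Of the 20 called probe sets 5 had an unadjusted p under 0.05 for the difference, but they were chosen on the injected change, which is a term of it, so the values that follow are a description. For pdk1.S the change was -1.26 ± 0.18 against -0.42 ± 0.18, a difference of -0.84 (interval -1.29 to -0.38), and its levels were 310 to 364 in injected caps without Noggin, 140 to 256 in their siblings, and 109 to 172 and 116 to 147 in Noggin. On this probe set, injected caps without Noggin were the group that overlapped no other. The companion probe set of pdk1.S at -0.99 read 209 to 264 there and 128 to 220 in their siblings, which overlap. Its change in uninjected caps was -0.66 ± 0.21, a difference of -0.33 (interval -0.85 to 0.19). The difference was -0.70 (interval -1.31 to -0.09) for myl9.L, -0.70 (-1.34 to -0.06) for cul3.S and 0.65 (0.10 to 1.21) for ctps2.L. Among probe sets with 1 symbol, the smallest unadjusted p in each direction belonged to a dim gene. These were ptgds-b, a prostaglandin D synthase gene, at 0.52 ± 0.25 in injected and -0.82 ± 0.25 in uninjected caps (difference 1.34, interval 0.80 to 1.87), and tal1.S, a blood factor, at -0.63 ± 0.20 and 0.43 ± 0.20 (difference -1.06, interval -1.60 to -0.53). The brighter pdk1.S, with an unadjusted limma p of 0.0017, was also among the 4 smallest with a negative difference.

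**Figure D5:**
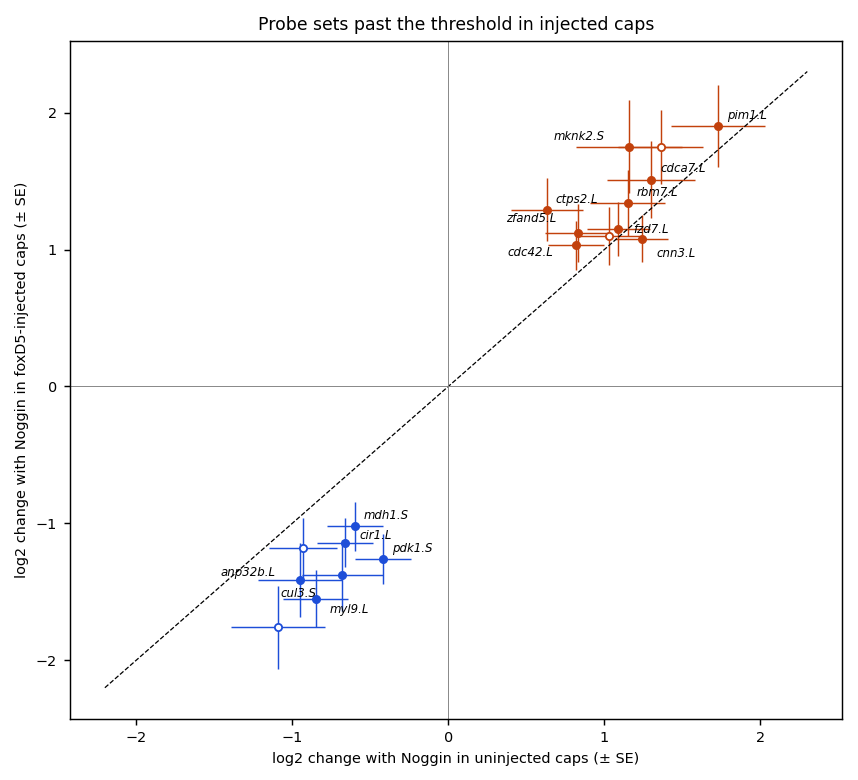
Log2 change with Noggin in foxD5-injected caps (vertical, ± SE) against that in uninjected caps (horizontal, ± SE) for probe sets past the threshold in injected caps. Filled circles are the 15 named genes, 1 probe set each, and open circles the 4 without a single gene symbol. The second called probe set of mdh1.S is not drawn. Rises are in orange, falls in blue, and the dashed line marks equal changes. All points have the same sign on both axes, and pdk1.S lies farthest to the right among the falls, at -0.42 against -1.26.

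The number of calls depended on single arrays. Leaving out 1 injected array at a time gave 2 to 26 probe sets, with 26 without plain replicate 1, 17 without plain replicate 2, 2 without Noggin replicate 1, 4 without Noggin replicate 2 or without plain replicate 3, and 8 without plain replicate 4 or Noggin replicate 3 or 4. Of the named genes myl9.L and pdk1.S passed in 8 of these 8 fits, pim1.L and cir1.L in 6, cnn3.L in 4, ctps2.L and cdc42.L in 3, cul3.S in 2 and the other 7 in 1. With the beta-actin ratio in the limma model, a choice made after the data were seen, 0 probe sets passed and 951 had an unadjusted p under 0.05. On injected arrays that ratio ran from 0.96 to 1.51 without Noggin and from 0.57 to 1.02 with it. It went largely with Noggin, so this fit cannot tell the 2 apart. A fit of the 8 injected arrays alone gave 0 calls, with 1782 at an unadjusted p under 0.05, and adding the labelled stage to that fit gave 0 with 1339, so what stage adds to the count cannot be read from it.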

How the data were processed

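RNA of 16 pools of animal caps was measured on 1 Affymetrix array each. The deposited values are linear signal intensities, 1 per probe set, and the software that made them, its scaling and its background step are not given in the sources used here. Of 15611 probe sets 120 manufacturer's controls were left out. Values were transformed as log2(intensity + 16), quantile-normalised over all arrays and fitted in limma 3.58.1 (R 4.3.3) with group as factor and labelled sibling pair as random block (correlation 0.364), 2-sided, with Benjamini-Hochberg adjustment over 15491 probe sets and a threshold of 0.05. The difference of Noggin effects used sibling pair as a fixed block. The code was tested on simulated data. The number of arrays limits the precision, and 4438 probe sets (28.6%) had a mean signal under 16. The highest correlation between any arrays was 0.982, so none was a copy of another. Samples without a number in their title were taken as number 1.

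Symbols came from GEO's platform annotation and were updated through Entrez IDs to RefSeq (assembly Xenopus_laevis_v10.1), where 9227 of 9304 probe sets with 1 symbol matched. No sequence is printed. Genes were named by rule: the 12 largest rises and falls past the threshold, filled up by the next smallest p, the 4 smallest p each way for the difference, up to 4 genes of smallest p per list, and a set of neural genes. Lists count 1 probe set per symbol, the brightest, while shares of all probe sets given beside them count every probe set. The members and the 24 lists were chosen with earlier results of these data known, and the 16 symbol families and the genes of known role after values were seen, and 1 family is not reported here. Alternatives were other normalisations, pseudocounts, filters, weights, blocks and covariates and leaving out each array.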

Additional observations from a re-analysis of the deposited data

Results flagged for a closer look

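In 18 of 458 groups of 4 arrays tested (3.93%), the gap between 1 array and its nearest neighbour took up more of the group's range of normalised values than Dixon's critical value allows, and chance flags about 1 group in 20. The value given is that share of the range.

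Without Noggin, replicate 1 was the lowest array for cox6a1.S (0.992, signal 613), id3 (0.881, 402), not.L (0.869, 45.1) and ventx2.2.L (0.831, 103). Replicate 2 was the highest for hba4.S (0.861, signal 59.2) and cdh3.S (0.841, 437) and the lowest for rab11a.S (0.842, 39.0). Replicate 3 was the highest for sox11.S (0.837). None of these genes passed the test.

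With Noggin, replicate 4 was the highest array for myl4.L (0.865, signal 34.9), pax8.L (0.853, 17.6), admp.S (0.853, 20.5) and foxd4l1.2.L (0.837, 15.4), all dim genes. Replicate 3 was the highest for hba4.S (0.913, signal 2.74), src.S (0.891, 9.45) and slc37a3.L (0.848, 716). Replicate 2 was the highest for gata3.S (0.848, signal 43.2) and bambi.S (0.836, 46.6), and replicate 1 the lowest for bnip3l.L (0.899, 75.4).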

How the results depend on the processing

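The count of 20 probe sets past the threshold for Noggin in injected caps varied with the processing, and the cause was not tested unless stated. It was 7 on the values as deposited and 15 after median centring, 1 with a pseudocount of 1, 193 with a pseudocount of 64, 96 among probe sets above the median signal (fewer tested), 62 with an intensity trend and 107 with array weights. With only the 8 injected arrays it was 0, with 1782 at an unadjusted p under 0.05. This fit had fewer samples behind the spread and no sibling block, and what lowered the count was not tested. The same 8 arrays with labelled stage as a term also gave 0, with 1339, which does not separate stage from the smaller set of arrays. It was 14 without the sibling block. Chosen after seeing the data, the beta-actin ratio as a term gave 0, with 951, a fit that cannot tell the ratio from Noggin. Leaving out both arrays with the fewest dim probe sets, also chosen after seeing the data, gave 2. Leaving out 1 array at a time gave 2 to 26. With the number in the titles as a replicate block it was 10, of which 9 were among the 20. Same-numbered injected samples of the plain and Noggin cultures did not deviate together (correlations of -0.040 to -0.064). Labelled siblings had -0.115, 0.385, 0.203 and 0.419 without Noggin and 0.453 to 0.670 in Noggin. As 1 labelled pair was also negative, these correlations cannot settle whether the numbers pair the cultures, and no label says so. The difference of Noggin effects gave 0 in limma in each of 16 alternatives, with 375 to 1004 at an unadjusted p under 0.05. No result tested changed direction past the threshold, and none of the 15 named genes changed sign in any setting. The 28.6% of probe sets under a mean signal of 16 are where signal over background limits the comparison.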

Other observations

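Splicing factors and hnRNPs, which process pre-mRNA in the nucleus, are a family defined by symbol after values were seen. With Noggin in injected caps their median log2 change was 0.07 over 68 genes and none passed. On every Noggin array 5 were higher and 5 lower, against 262 and 346 of all 7531 symbols. Counted over all probe sets instead of symbols, the shares were 3.44% and 3.71%. Solute carriers, the membrane transporters of nutrients and ions, stood at 0.01 over 111 genes with none past the threshold.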
